A study of Helix lucorum with 35 samples.

Results

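Contig 1398029 is the assembled transcript of the snail Helix lucorum that the study paired with its c-fos/fosl2 in situ hybridization probe, and it was taken by that number from the count tables, as 1 of 693041 contigs of the assembly. Total RNA of parietal ganglia (PaG) was depleted of ribosomal RNA and sequenced in 24 libraries from 13 snails, of which 11 gave both a control and an activated library. In the first experiment (E1, snails 1 to 6) each library was the PaG of 1 side, and the left ganglia carried the adhered visceral ganglion. In the second experiment (E2, snails 7 to 13) each library was a piece cut from the middle of the PaG, where the cell bodies of Pa2 and Pa3 lie, giant interneurons that act on motor neurons and make up most of the piece.

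All nervous systems were isolated from adult snails, kept at 4 °C for 24 h in saline that suppresses electrical activity and then for 1 h at room temperature. The control side was cut out and frozen at that point and received no drug. The other side, called activated, was washed out of the suppressing saline into normal saline, which holds less calcium and magnesium. It was kept there for 10 min with 20 µM anisomycin, an inhibitor of protein synthesis. For a further 20 to 25 min it was kept in normal saline with anisomycin, 100 µM caffeine and 5 µM serotonin (5-HT). Anisomycin, caffeine, 5-HT, the wash, the change of saline and the later time of freezing therefore came together. Their parts in any difference between control and activated samples cannot be told apart. E1 had 6 control libraries (3 right, from snails 1 to 3, and 3 left, from snails 4 to 6) and 6 activated libraries from the opposite sides. E2 had 6 control libraries (2 left, 4 right) and 6 activated libraries (4 left, 2 right). For snail 7 there was no control library and for snail 12 no activated library.

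Fos proteins pair with Jun proteins to form AP-1, a transcription factor that binds DNA as a dimer. In mammals c-fos and its relative fosl2 are immediate early genes, whose transcription is set off by calcium and cAMP signalling without new protein being made first, and in the fruit fly the family is represented by kayak. In neurons c-fos mRNA is widely used as a mark of recent activity because it is usually scarce at rest and short-lived. The other contigs are known here only by number, since no annotation of the assembly was used, so neither the partners and targets of Fos nor the defining markers of the tissue could be looked up. The sequence of the contig was not used here.

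At rest the contig was lower in the whole PaG (median 2.92 CPM) than in the medial piece with Pa2 and Pa3 (median 26.9 CPM), and it was higher after activation in all 11 snails with both libraries. Levels are given as CPM, the usual measure of the reads assigned to a contig relative to all reads assigned to contigs in its library. CPM were scaled jointly over the 24 libraries with the trimmed mean of M values (TMM), and differences are of log2(CPM + 0.5). The library totals are sums of rounded expected counts over all contigs, called reads here, and not all reads sequenced. They ran from 926128 (the E2 activated library of snail 9) to 35225552, and the contig itself held between 12 and 4831 of them. The order of the group medians was E1 control, E2 control, E1 activated and E2 activated.

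**Figure D1:**
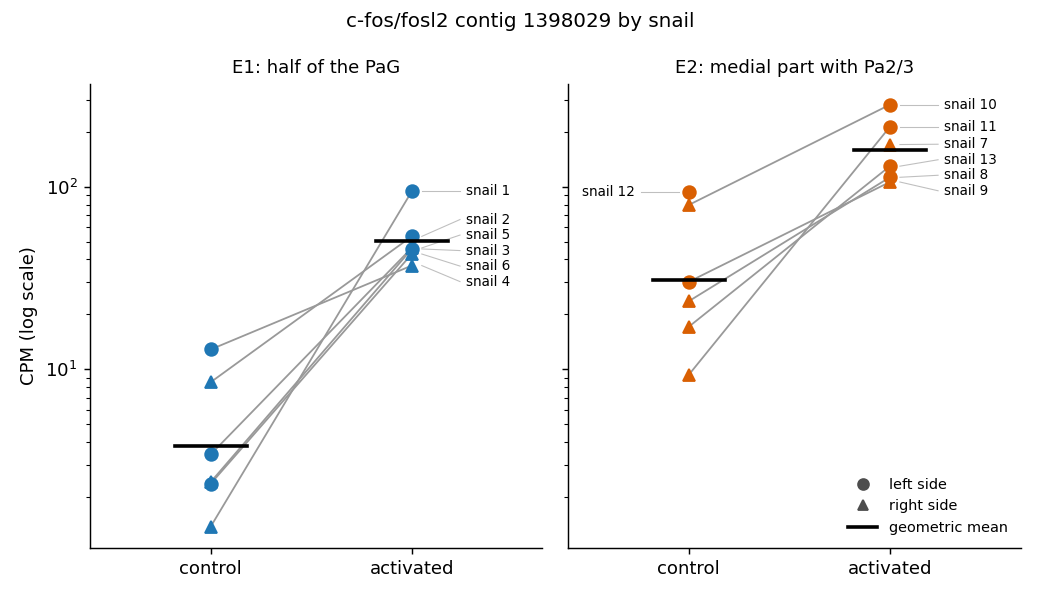
Level of contig 1398029 in CPM (log scale) in the control and activated library of each snail, for E1 (left panel, 6 snails) and E2 (right panel, 7 snails). Grey lines join the libraries of 1 snail, circles are left and triangles right samples, and black bars are geometric means; every line rises, and the control points of each panel are spread more widely than the activated ones.

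In the E1 control libraries the lowest level was 1.38 CPM, the median 2.92 CPM and the highest 12.9 CPM (mean 5.15 ± 4.54, SD, n = 6). Snails 4 (12.9 CPM) and 2 (8.50 CPM) stood above the other 4, which lay between 1.38 and 3.42 CPM. These resting values rest on few reads: snail 6 had 12 reads of the contig, which is 3.35 CPM before scaling with an exact 95% binomial interval of 1.73 to 5.85, and snail 4 had 390, which is 12.7 CPM before scaling with an interval of 11.5 to 14.0. The intervals cover counting error only.

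In the E2 control libraries the level ran from 9.34 CPM through a median of 26.9 CPM to 93.5 CPM (mean 42.2 ± 35.3, SD, n = 6). The highest were snail 12 at 93.5 CPM and snail 10 at 79.6 CPM, and the lowest was snail 11 at 9.34 CPM. Each E2 control library but that of snail 11 lay above all E1 control libraries, and 1 E1 control library, that of snail 4, lay above the lowest of E2. On the log2 scale the resting level was 2.83 higher in E2 than in E1 (exact two-sided permutation test over all groupings, n = 6 and 6, p = 0.00433). That difference was larger than the SD within the groups, which was 1.09 in E1 and 1.26 in E2. In a fit of the control libraries across 359416 contigs the contig was called higher in E2 (log2 fold change 3.03, edgeR exact test, adjusted p = 0.00271), as were 0.809% of the contigs tested, and 1.61% of them had a larger log2 fold change.

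Whether this gap follows from the medial piece or from the experiment cannot be told apart, because no snail gave both kinds of sample and all E2 libraries belong to the second experiment. In these bulk samples fewer cells of a type and less RNA per cell cannot be told apart either. The choice of scale also bears on its size: with plain library totals in place of the joint TMM factors, the scale itself moved, so that E2 fell by 0.56 against E1 on the log2 scale at rest and by 0.33 after activation, before the offset of 0.5 CPM. The resting difference of the contig was then 2.31, and it stayed between 2.31 and 3.03 over the scales, offsets and tests tried.

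The resting levels of left and right samples overlapped. In E1 the left control samples (snails 4, 5 and 6) had 12.9, 3.42 and 2.36 CPM and the right ones (snails 1, 2 and 3) had 1.38, 8.50 and 2.41 CPM. The left samples were higher by 0.54 on the log2 scale (exact permutation test, two-sided, n = 3 and 3, p = 0.6, where 0.1 is the smallest p possible). This difference rests on snail 4, and without its control library it was -0.13. In E2 the 2 left control samples had 30.2 CPM (snail 9) and 93.5 CPM (snail 12), and the 4 right ones had 23.6, 79.6, 9.34 and 17.1 CPM (snails 8, 10, 11 and 13). The left samples were higher by 1.16 on the log2 scale (exact permutation test, two-sided, n = 2 and 4, p = 0.333, where 0.0667 is the smallest p possible). This value too rests on single libraries, and with the control of snail 12, 11, 10 or 9 left out it was 0.35, 0.73, 1.74 or 1.97. In E1 the left samples also carry the visceral ganglion, so side and visceral ganglion cannot be told apart there.

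With all 12 libraries of an experiment and the state as a covariate, the side difference of the contig was 0.62 in E1 and 0.67 in E2 (log2, left minus right; edgeR quasi-likelihood test, unadjusted p = 0.215 and 0.22, adjusted p = 1 in each). Of all contigs tested 0.0794% in E1 and 0.0551% in E2 passed this test (adjusted p under 0.05 and a change of over 2-fold), and 16.7% and 19.4% had a larger left minus right value than the contig. With the snail as a block the E1 value was 0.66 with an unadjusted p of 0.000444 and an adjusted p of 0.0644, still short of the threshold. Taken over the E1 snails, the mean log2 difference of activated minus control was 4.08 with the left side activated and 3.00 with the right. An exact permutation test of these differences between snails gave p = 0.4 (two-sided, n = 3 and 3). In the fit without the block the E1 value was 0.23 when the control of snail 4 was left out. The E2 value was 0.24 without the control of snail 12, 1.08 without that of snail 10 and 0.29 with plain library totals. After activation the left samples of E1 lay between 45.7 and 94.4 CPM and the right ones between 37.0 and 46.3 CPM, with 1 right sample inside the left range. That difference was 0.55 on the log2 scale (exact permutation test, two-sided, n = 3 and 3, p = 0.2), and the one of E2, between 4 left and 2 right samples, was 0.35 (p = 0.533).

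After activation the contig reached between 37.0 and 94.4 CPM in E1, with a median of 46.0 CPM (mean 53.3 ± 20.8, SD, n = 6). Snail 1 stood above the rest at 94.4 CPM, and the other 5 libraries lay between 37.0 and 53.5 CPM. No activated library of E1 overlapped with the controls of E1, as the lowest activated value, 37.0 CPM, was above the highest control value, 12.9 CPM. How large a share of all contigs separates in this way was not counted, so nothing particular to the contig is read from it.

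In every E1 snail the activated side was the higher. Snail 1 went from 1.38 to 94.4 CPM, a difference of 5.66 on the log2 scale and the largest of the series. Snail 4 went from 12.9 to 37.0 CPM, a difference of 1.49 and the smallest. Snails 3, 5 and 6 started from 2.41, 3.42 and 2.36 CPM and ended close together at 45.7, 46.3 and 42.8 CPM, while snail 2 went from 8.50 to 53.5 CPM. These 4 snails had differences between 2.58 and 3.99, and the mean was 3.54 ± 1.41 (SD, n = 6; higher in 6 of 6 snails, exact sign-flip permutation test, two-sided, p = 0.03125, the smallest p possible). Across all contigs of E1 tested, 0.0843% were called higher after activation by the study's own type of test (edgeR exact test, adjusted p under 0.05 and a change of over 2-fold). The contig was among them, with a log2 fold change of 3.30 and an adjusted p of 0.00051, in place 30 of 387774 by p and in place 1548 by log2 fold change. On simulated data this test called unchanged contigs more often than its nominal rate. There the libraries of 1 snail were drawn independently, unlike the real ones, so the rate in the real data was not tested. The call depends on the test, since the quasi-likelihood test without the pairing gave an adjusted p of 0.134 and called 0 contigs (10541 had an unadjusted p under 0.05), while the same test with the snail as a block gave a log2 fold change of 3.59 and an adjusted p of 1.44e-05 and called 1269 contigs against 334 (0.0861% of those tested). Over the tests, scales and filters tried the adjusted p lay between 4.89e-06 and 0.134.

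In E2 the activated libraries ran from 106 CPM through a median of 150 CPM to 282 CPM (mean 169 ± 68.3, SD, n = 6). Snails 10 (282 CPM) and 11 (213 CPM) were the highest, and the lowest was snail 9 at 106 CPM. All 6 lay above the highest E2 control library, at 93.5 CPM, although snail 12, which gave that library, has no activated partner. Here too the share of all contigs that separate was not counted.

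The smallest differences of E2 belonged to snails 9 and 10, at 1.80 and 1.82 on the log2 scale, with 30.2 and 106 CPM in snail 9 and 79.6 and 282 CPM in snail 10. The largest belonged to snail 11, at 4.44, from 9.34 to 213 CPM. Snails 8 and 13 lay between them, at 2.23 (23.6 to 113 CPM) and 2.89 (17.1 to 130 CPM), and the unpaired activated library of snail 7 had 171 CPM. The mean over the 5 snails with both libraries was 2.64 ± 1.10 (SD, n = 5; higher in 5 of 5 snails, exact sign-flip permutation test, two-sided, p = 0.0625, the smallest p possible with 5 pairs). The activated side was the left in 4 of these snails (mean 2.84) and the right in 1, snail 9 (1.80). Side and activation are thus partly mixed in the E2 values, also where these are compared with E1. By the edgeR exact test, which does not use the pairing, the log2 fold change was 2.04 and the adjusted p 0.392, so the contig was not called, whereas 0.0239% of 317414 contigs were called higher. The contig was in place 644 by p and in place 5020 by log2 fold change. With the snail as a block in a quasi-likelihood fit the log2 fold change was 2.65 and the adjusted p 6.18e-05, and the contig was called, as 1461 contigs were against 112 (0.0353% of those tested). Over the tests, scales and filters tried the adjusted p lay between 6.18e-05 and 1. The value of snail 9 depends on the scale, because its activated library is the shallowest of the series and its TMM factor is the most extreme: 170 of its 926128 reads were of the contig, or 184 CPM before scaling (95% interval 157 to 213) against 106 CPM after it. Without scaling, the difference of snail 9 was 2.62.

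Since the study designed its probe to a contig that had risen in these same libraries, the rise is not independent evidence of an activation of c-fos/fosl2. The mean paired difference was 0.90 larger in E1 than in E2 (exact permutation test over 462 groupings of the 11 snails, n = 6 and 5, two-sided, p = 0.273), which does not exceed the spread between snails. The fold change of contig 1398029 was also set beside those of contigs with a similar resting level. Of 23293 contigs of E1 whose mean control level was within 2-fold of that of contig 1398029, 4 had at least its log2 fold change (0.0172%), and of 3280 such contigs of E2, 7 did (0.213%). The choice of c-fos/fosl2 from contigs that changed in these same libraries favours small shares, so nothing is read from these counts.

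The activated level, like the resting one, was higher in the medial piece than in the whole ganglion. On the joint TMM scale the groups did not overlap, with 94.4 CPM as the highest E1 and 106 CPM as the lowest E2 activated value. The difference was 1.64 on the log2 scale (exact permutation test over all groupings, two-sided, n = 6 and 6, p = 0.00216, the smallest p possible). Before scaling they did overlap, as E1 snail 1 had 122 CPM against 98.9 and 92.6 CPM in E2 snails 8 and 13. With plain library totals the difference was 1.30 (exact permutation test, p = 0.00649). The share of all contigs without overlap was not counted, here or for the other groups. By the edgeR exact test on the activated libraries the contig was called higher in E2 (log2 fold change 1.67, adjusted p = 0.0181), as were 0.64% of 357765 contigs. A larger log2 fold change was found for 4.29% of the contigs.

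The resting medial piece and the activated whole ganglion were neighbours in the order of the groups. The E1 activated libraries were 0.70 higher than the E2 control libraries on the log2 scale (exact permutation test over all groupings, two-sided, n = 6 and 6, p = 0.223), and 2 E2 controls, those of snails 10 and 12, lay inside the E1 activated range. The size of this difference depends on the scale and on single libraries: it was 1.14 with plain library totals (p = 0.0584) and 1.12 with TMM within each experiment (p = 0.0693; exact tests), and it was 0.37 without the E2 control of snail 11. None of these passed 0.05, which does not show that the groups are alike. The family for adjustment was 11 exact tests on the level of the contig. It left out the exact tests of the relation of resting to activated level, given below, and those of paired differences by activated side. After Benjamini-Hochberg adjustment over them, the resting and the activated difference between E2 and E1 had p = 0.0238 each, and the paired difference of E1 had p = 0.0859 (exact tests).

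Snails differed more at rest than after activation. The highest control value was 9.34 times the lowest in E1 and 10.0 times the lowest in E2, whereas the activated values spanned 2.55-fold and 2.65-fold. In log2 units the SD fell from 1.09 to 0.47 in E1 and from 1.26 to 0.55 in E2. Counting error alone, which is larger where reads are fewer, would give an SD of 0.275 in the E1 controls, 0.0965 in the E2 controls and 0.0586 and 0.0561 in the activated libraries of E1 and E2, and its part in the ratio of the spreads was not tested. Over the 11 snails with both libraries the SD around the group means was 2.09 times as large in the control as in the activated libraries (exact test over the 2048 swaps of control and activated within snails, two-sided, p = 0.0107, or 0.0394 after adjustment over the 11 tests). The median ratio over 93315 other contigs was 0.952, and 1.40% of them had a ratio at least as large.

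The snails with a low resting level were those with a large difference. In E1 the snails in order of resting level, from the lowest, were 1, 6, 3, 5, 2 and 4, and in order of difference, from the largest, 1, 3, 6, 5, 2 and 4. In E2 the corresponding orders were 11, 13, 8, 9, 10 and 11, 13, 8, 10, 9. The difference contains the resting level, so part of this agreement is built in. No relation of the resting to the activated level passed a test over the 6 snails of E1 (Pearson r = -0.58, exact permutation p = 0.142; Spearman rho = -0.43, exact permutation p = 0.419; adjusted over both p = 0.283 and 0.419). Without the 2 snails farthest from the median resting level r was -0.85 and rho -0.20 over the 4 that remained, too few to carry a relation. The 5 snails of E2 were too few for a correlation, and there snail 10 had the highest level in both states while snail 11 had the lowest resting and the next highest activated level.

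**Figure D2:**
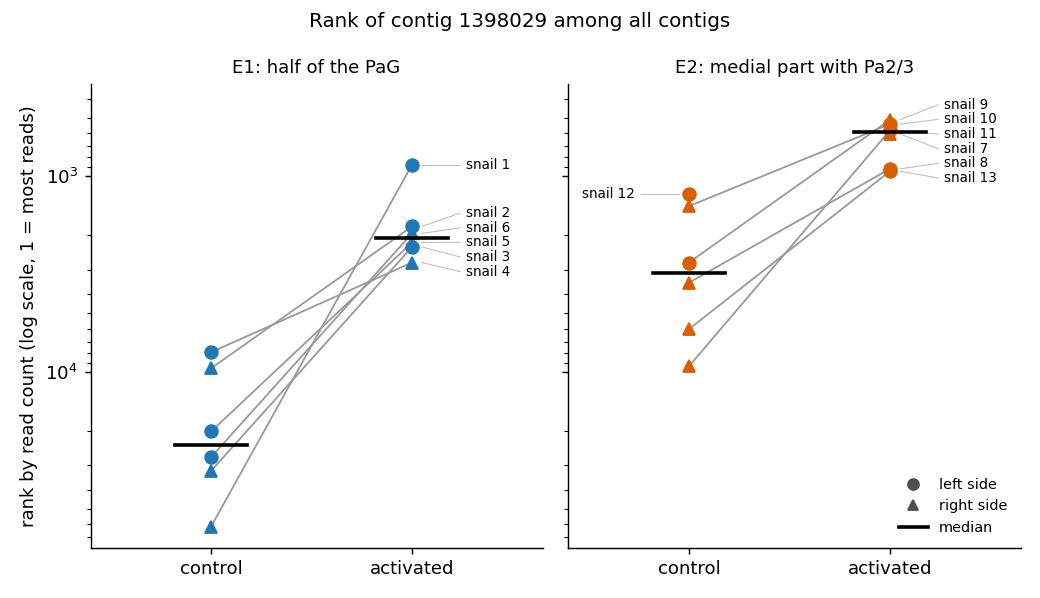
Rank of contig 1398029 by read count among all contigs (log scale, 1 = most reads, so higher on the axis is more abundant) in the control and activated library of each snail. Grey lines join the libraries of 1 snail, circles are left and triangles right samples, and black bars are medians; the E1 lines rise from a median rank of 23705 to 2067.5 and the E2 lines from 3125.5 to 594.

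By read count, the contig was already in the upper part of the contigs with reads at rest, and it ranked higher after activation in every snail with both libraries. Ranks compare counts and not counts per length, as contig lengths were not used here, but the same contig is compared with itself. In the E1 control libraries it ranked from 7923 (snail 4) to 61733 (snail 1), with a median of 23705, which placed it at 1.76% to 13.4% from the top of the contigs with at least 1 read. In the E1 activated libraries it ranked from 871 (snail 1) to 2757 (snail 4), with a median of 2067.5, or at 0.277% to 0.818% from the top. No activated rank fell within the control ranks, and the share of other contigs with such a separation of ranks was not counted. The climb was 5166 places in snail 4 and 60862 in snail 1, with a median of 21637.5 over the 6 snails.

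In E2 the contig started higher and had less far to go. Its control ranks ran from 1236 (snail 12) through a median of 3125.5 to 9346 (snail 11), and its activated ranks from 513 (snail 9) through a median of 594 to 941 (snail 13). The activated libraries placed it at 0.143% to 0.492% from the top. The climb was between 879 places in snail 10 and 8764 in snail 11, with a median of 2581 over 5 snails.

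Ranks by count in shallow libraries rest on many ties: in the E1 control library of snail 6, where the contig had 12 reads, 2152 contigs shared that count. When all libraries were thinned at random to 926128 reads, the total of the shallowest, the median ranks were 20176 and 2024 in E1 and 3439 and 591.5 in E2. At that depth the E1 control library of snail 1 held 0 reads of the contig and the other E1 control libraries between 3 and 14, against 32 to 108 in the E1 activated libraries. The E2 control libraries held 8 to 58 and the E2 activated libraries 89 to 192.

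The other contigs were then ordered by how closely their level followed contig 1398029 over the 24 libraries, with Pearson's r of log2(CPM + 0.5) as the measure of likeness. The 93315 other contigs with at least 1 CPM on the joint TMM scale in at least 6 libraries entered. Their median r was -0.014, and 130 of them (0.139%) had r of 0.9 or more. The libraries share activation state, experiment, snail and depth, so r is a description of these libraries and carries no p. To set aside the differences between the 4 groups, r was also taken after the mean of each group was removed (within groups). By that measure the median was 0.0793 and 2 contigs reached 0.9.

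**Figure D3:**
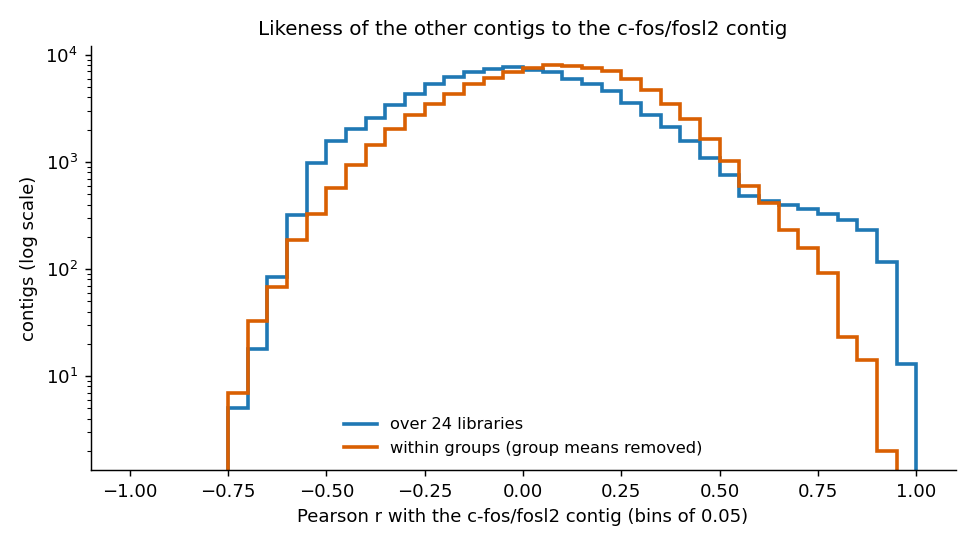
Number of contigs (log scale) by Pearson r with contig 1398029 in bins of 0.05, over the 24 libraries (blue) and within groups (orange), for 93315 contigs. Both distributions centre near 0, and the one over 24 libraries has a shoulder above 0.7, where 1336 contigs lie against 286 within groups.

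The contig most like it was 516121, with r = 0.979 over the 24 libraries and 0.930 within groups, the first place by both measures. It was a more abundant contig, at 2.70 to 16.0 times the reads of contig 1398029 in the same library. In the E1 control libraries it ran from 22.0 to 98.3 CPM with a median of 40.3 CPM, and in the E1 activated libraries from 204 to 328 CPM with a median of 267 CPM. In the E2 control libraries it ran from 102 to 669 CPM with a median of 161 CPM, and in the E2 activated libraries from 287 to 1279 CPM with a median of 606 CPM. Its 4 group medians came in the same order as those of contig 1398029. Its r was 0.984 over the 12 control and 0.926 over the 12 activated libraries, and 0.988 in E1 and 0.943 in E2. It was chosen by r over these same libraries, which favours such values. Its own log2 fold change was smaller, at 2.22 in E1 (edgeR exact test, adjusted p = 0.00761) and 1.21 in E2 (adjusted p = 1), and it was higher after activation in 6 of 6 and 5 of 5 snails.

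**Figure D4:**
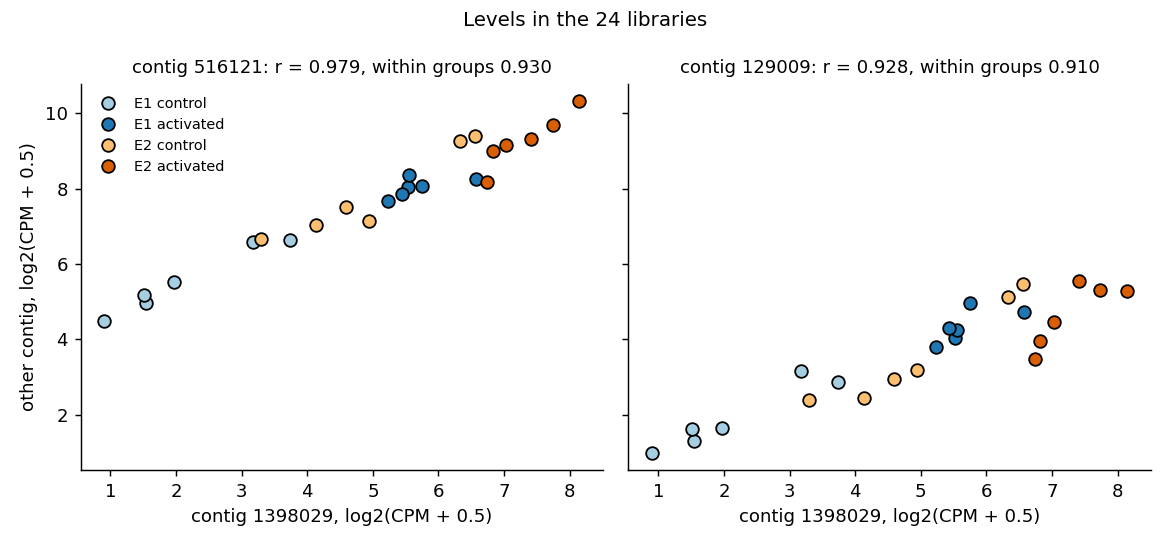
Level of contigs 516121 (left panel) and 129009 (right panel) against contig 1398029 in the 24 libraries, both axes as log2(CPM + 0.5), with 1 point per library coloured by group. Contig 516121 follows a single line through all 4 groups (r = 0.979), whereas contig 129009 (r = 0.928) lies lower in the E2 activated libraries than that line would place it.

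Contigs 350004 and 399398 followed, with r = 0.974 and 0.972, and unlike contig 516121 they matched the size of the change too. Contig 350004 had about the same number of reads as contig 1398029 (between 0.497 and 2.17 times as many in the same library), with log2 fold changes of 3.56 in E1 and 1.88 in E2. Contig 399398 had 0.490 times its reads in the median library, with log2 fold changes of 3.82 and 1.95. Both were called higher in E1 and neither was called in E2 (edgeR exact test, adjusted p = 0.000106 and 0.595 for contig 350004, 6.3e-05 and 0.609 for contig 399398). The ratio of contig 399398 ran from 0.236 to 1.05, so neither ratio was steady over the libraries. Whether such contigs are pieces of 1 transcript or separate transcripts cannot be told apart without their sequences.

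The remaining 5 of the 8 most alike contigs were 1760812, 1509665, 1436210, 382141 and 1714150, with r from 0.965 to 0.960 and r within groups from 0.812 to 0.870. Their log2 fold changes lay between 2.01 and 2.76 in E1 and between 1.15 and 1.47 in E2, below those of contig 1398029. All 8 contigs were called higher in E1, against 0.0843% of the contigs tested, and none was called in E2, against 0.0239%. The choice by likeness favours contigs that rise with activation, so nothing is read from these counts. When the 2 libraries farthest from the median, the E1 controls of snails 1 and 6, were left out, the 8 values of r lay between 0.948 and 0.972. With ranks in place of levels (Spearman's rho), 5 of the 8 stayed among the 8 most alike, and contig 350004 came first with rho = 0.982.

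**Figure D5:**
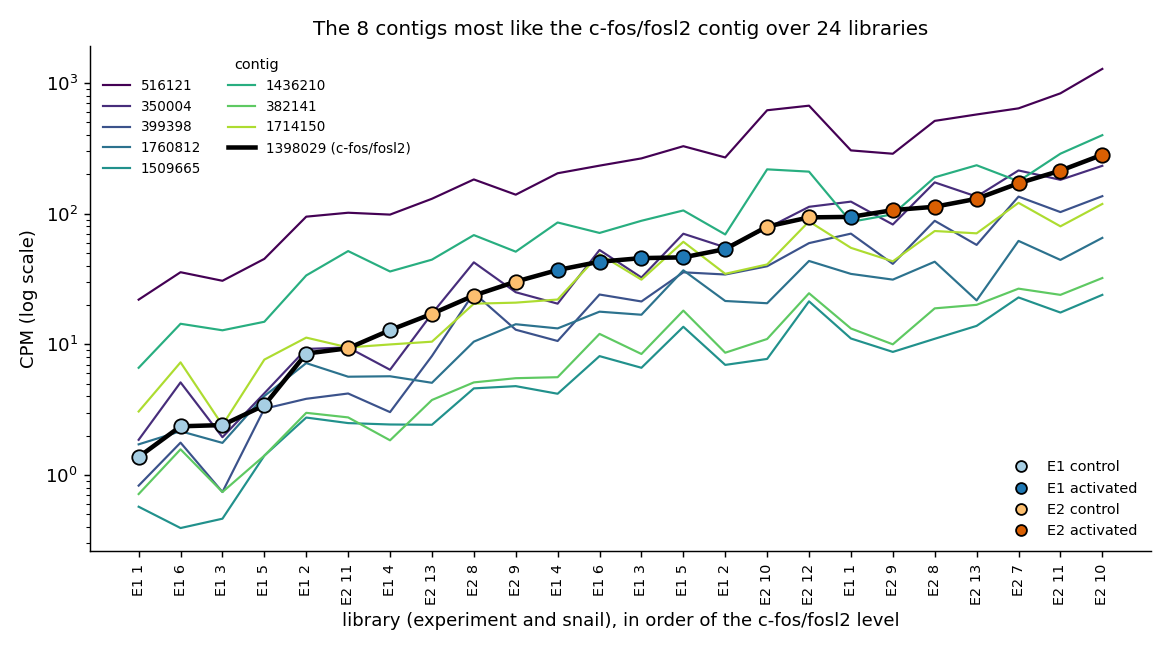
CPM (log scale) of contig 1398029 (black, points coloured by group) and of the 8 contigs most like it (coloured lines) in the 24 libraries, ordered from the lowest to the highest level of contig 1398029. All 8 lines climb with it, and in the E2 control libraries of snails 10 and 12 contigs 516121 and 1436210 stand above their neighbours on either side.

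Within groups the order changed below the first place. After contig 516121 came 129009 (0.910), 1652695 (0.885), 45662 (0.881) and 1844768 (0.873), whose r over the 24 libraries was 0.928, 0.926, 0.904 and 0.874. For these 4, r with contig 1398029 was 0.860 to 0.974 over the 12 control libraries and 0.478 to 0.825 over the activated ones. This difference was not tested, and part of it is built in. These r values pool E1 and E2 without removal of the group means, so they include the gap between E2 and E1. For contig 1398029 that gap was 2.83 on the log2 scale at rest and 1.64 after activation. Contig 1398029 varied more in the controls (log2 SD 1.09 in E1 and 1.26 in E2) than after activation (0.47 and 0.55). The choice by r within groups therefore weighs the controls more. The log2 fold changes of these 4 were smaller than those of contig 1398029, from 1.40 to 2.28 in E1 and from 0.35 to 0.79 in E2. Contig 1652695 was the most abundant, at a median of 9.69 times the reads of contig 1398029, and it was not called in either experiment (edgeR exact test, adjusted p = 0.551 in E1 and 1 in E2).

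Over the 130 contigs with r of 0.9 or more, r within groups ran from 0.534 to 0.930 with a median of 0.747, against a median of 0.0793 over all contigs. Over the 12 control libraries alone their r ran from 0.819 to 0.984 with a median of 0.923, against 0.0691 over all contigs. The 130 were chosen by r over libraries that include these controls, and r within groups uses the same libraries. That choice favours high values of both, so nothing is read from these r values. All 130 had a log2 fold change above 0 in E1 and in E2, with medians of 2.21 and 1.16, against 0.013 and -0.063 over all contigs tested. The choice by likeness to a contig that is higher after activation favours such values in these same libraries, so nothing is read from them or from the following counts. By the edgeR exact test 79 of them (60.8%) were called higher in E1, where 0.0843% of all contigs tested were. These are 29.4% of the 269 contigs that entered the comparison and were called higher in E1. In E2 8 (6.15%) were called higher, where 0.0239% of all contigs tested were, or 14.8% of the 54 so called. The 8 are also called in E1, and they make up 25.0% of the 32 contigs called higher in both experiments.

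Contigs that ran against it were fewer and scarce. Of the 93315 contigs 5 had r of -0.7 or less, against 1336 with r of 0.7 or more. The lowest were 1677362 (r = -0.726), 1928716 (-0.724) and 356030 (-0.707), with 590, 518 and 306 reads in all 24 libraries together and 0 reads in at least 1 library. Contig 1677362 was called lower after activation in E2 (log2 fold change -3.03, edgeR exact test, adjusted p = 0.0333; higher in 0 of 5 snails) and not in E1 (-0.99, adjusted p = 1). Contig 1928716 was not called in E1 or E2 (edgeR exact test, adjusted p = 1 and 0.0641), and contig 356030 was not called in E1 and had too few reads to enter the E2 test. At such counts r rests on few reads, and the cause of the negative values was not tested.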

How the data were processed

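The deposited tables hold expected counts per contig for 24 libraries, which the authors estimated with RSEM 1.2.18 and Bowtie 1.0.0 on their own assembly of the snail transcriptome after trimming with cutadapt 1.11. RSEM shares reads between contigs with common sequence, so the counts of near-identical contigs are uncertain. Expected counts were rounded. Contigs with a total above 10 entered the fits of edgeR 4.0.16 in R 4.3.3, with the exact test of the authors as the main test, and DESeq2 1.42.0 served as an alternative. Exact permutation tests, ranks and correlations were computed in Python 3.11.15 with an offset of 0.5 CPM. Libraries of 1 snail come from the same animal by the labels. Their deviations from the group means, taken over contigs averaging 50 reads or more, correlated by 0.699 to 0.792 in E1 (6 pairs) and by 0.375 to 0.751 in E2 (5 pairs). Named contigs are the 8 with the highest r, the 5 with the highest r within groups and the 3 with the lowest r. The contig, the lists and the tests were chosen with earlier results of these data known. The labels name no sequencing batch and give the molecule as polyA RNA, whereas the protocol describes total RNA. Of 35 samples in the series, the 11 made for the assembly were not analysed here. The fits and the search for alike contigs were tested on simulated data, in which the libraries of 1 snail did not vary together as the real ones do. The planted fold changes were recovered on average. The exact test also called unchanged contigs more often than its nominal rate, and the quasi-likelihood test of side had little power. The comparison of E1 activated with E2 control libraries, that of the activated sides and the relation of resting to activated level were added after the data were seen.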

Additional observations from a re-analysis of the deposited data

Results flagged for a closer look

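In groups of 6 libraries the library totals, the rank of contig 1398029 and the levels of it and of the 15 other named contigs were searched for a library that stood apart from the other 5 (gap over 0.625 of the group's range). None was found for contig 1398029. Of 72 groups 4 had such a library, against the 3.6 that chance gives at 1 in 20, and all 4 concern the scarce contigs with the lowest r. On the scale of log2(CPM + 0.5), contig 1677362 was at 2.29 in the E1 control library of snail 1, where the next was 1.30. Contig 1928716 was at -0.27 in the E1 control library of snail 4, with the nearest at 1.27, and at 2.41 in the E2 control library of snail 13, with the nearest at 1.38. Contig 356030 was at -0.51 in the E2 activated library of snail 13, where the other 5 held 0 reads of it.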

How the results depend on the processing

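The limits are as follows. The tests measure the spread between 6 snails or fewer, each sampled once per side, and E1 and E2 differ in tissue and snails together. Resting E1 levels rest on as few as 12 reads. On simulated data, drawn without the likeness of libraries of 1 snail, the exact test called unchanged contigs more often than its nominal rate. How far that holds for the real libraries was not tested, and counts of calls are treated as loose. The direction of activation held under each scale, test, filter and left-out library tried, whereas the call did not: in E1 the quasi-likelihood test without the replicate block gave a log2 fold change of 3.30, no longer past the threshold (adjusted p = 0.134), and in E2 the same test with the snail as replicate block gave 2.65, which passed it (6.18e-05). The paired values of E1 with 1 snail left out lay between 3.11 and 3.95, where 5 pairs cannot pass 0.05 (p = 0.0625, exact). The resting side difference of E1 lay between -0.13 and 1.18 with 1 library left out, the former without the control of snail 4. The activated side difference of E2, 0.35, was -0.37 with plain library totals. The contigs with r of 0.9 or more within groups numbered 2, 1 with plain totals and 1 to 5 with 1 library left out. Those over the 24 libraries numbered 130, from 88 to 160 under the alternatives. The contigs called in E1 and E2, 334 and 112, numbered 0 and 0 with the quasi-likelihood test (10541 and 12176 at an unadjusted p under 0.05), 1269 and 1461 with the replicate block, 532 and 239 with DESeq2, 294 and 59 without the filter, and 141 to 674 and 52 to 192 with 1 library left out. The cause of these shifts was not tested. Resting and activated differences between E2 and E1 and the spread ratio kept their direction and side of the threshold throughout.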
